A study of Mus musculus with 24 samples.

Results

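The 10 genes described here encode the pyruvate dehydrogenase complex of mitochondria and the enzymes that switch it off and on. They were taken by symbol from the expression table, with 10 of 10 found among 24532 genes. They comprise 4 kinases (*Pdk1*, *Pdk2*, *Pdk3* and *Pdk4*), 2 phosphatases (*Pdp1* and *Pdp2*) and 4 subunits of the complex (*Pdha1*, *Pdhb*, *Dlat* and *Pdhx*). RNA sequencing libraries were made from liver, inguinal white adipose tissue (iWAT), gastrocnemius muscle (GM) and hypothalamus (Hypo) of C57BL/6 mice aged 8 weeks on a chow diet. Control mice (Ctrl) carried *Crif1*flox/flox without Cre. Knockout mice (LKO) carried Alb-Cre;*Crif1*flox/flox, so that Cre was driven by the albumin promoter, which is active in hepatocytes, and the other cells of the liver and the other 3 tissues kept the floxed gene. Each of the 8 groups held 3 libraries, 24 in all. It is not given in the sources used here if 1 mouse supplied several tissues or if each library was a separate animal, so p-values measure the spread between these libraries.

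The pyruvate dehydrogenase complex converts pyruvate from glycolysis into acetyl-CoA inside mitochondria, a step that animals cannot reverse. The kinases phosphorylate the alpha subunit, encoded by *Pdha1*, and so stop the complex, and the phosphatases remove that phosphate. PDK4 is known as the kinase that increases in liver and muscle during fasting, when fatty acids replace glucose as fuel, and PDK2 is known as the most widely expressed one.

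Values are FPKM (fragments set per transcript length and per library size), so genes can be set beside each other within a library. The depth implied by the tables ranged from 4.45 to 8.09 gigabases per library, with a median of 5.19. *Crif1* itself (*Gadd45gip1*, NCBI Gene 102060) was at 14.6, 12.5 and 13.6 FPKM in Ctrl liver and at 5.40, 2.0 and 2.51 FPKM in LKO liver (log2 fold change -1.84 ± 0.27 SE, limma adjusted p 0.00357). In the other tissues the *Crif1* levels of the groups overlapped. Each tissue showed its own defining marker, with *Alb* from 33127 to 53194 FPKM in liver, *Adipoq* from 2784 to 3036 in iWAT, *Acta1* from 23443 to 28054 in GM and *Snap25* from 545 to 606 in hypothalamus. In these bulk samples fewer cells of a type and less RNA per cell cannot be told apart.

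Among control mice the kinase composition differed between tissues. *Pdk2* (NCBI Gene 18604, mm10 chromosome 11 from 95026258 to 95041371, minus strand) made up 72.1% ± 2.8 of the summed kinase FPKM in liver, 70.0% ± 0.67 in hypothalamus and 58.4% ± 13 in GM (SD, n = 3 each). In iWAT *Pdk4* (NCBI Gene 27273, chromosome 6 from 5483351 to 5496278, minus strand) took the most, at 47.1% ± 1.5, and *Pdk2* took 40.8% ± 2.7. *Pdk4* was 37.0% ± 14.1 of the sum in GM, 6.09% ± 2.28 in liver and 4.81% ± 0.45 in hypothalamus. *Pdk1* (NCBI Gene 228026, chromosome 2 from 71873224 to 71903858, plus strand), known as a target of the hypoxia factor HIF1, held 21.5% ± 2.0 in liver and 15.8% ± 0.67 in hypothalamus. *Pdk3* (NCBI Gene 236900, chromosome X from 93764616 to 93832095, minus strand) was the least expressed kinase in liver, iWAT and GM, and *Pdk4* was the least expressed in hypothalamus.

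The start of *Pdk4* and of *Pdk1* is shown because these 2 kinases moved in opposite directions in LKO liver. Each line gives the 250 bases before the transcription start from RefSeq (GRCm38.p6), 5′ to 3′ on the strand of the gene, at chr6:5496279-5496528 (minus) for *Pdk4* and chr2:71872974-71873223 (plus) for *Pdk1*. Capitals mark the CCAAT box (CCAAT, here on the other strand) in *Pdk4* and the GC box (GGGCGG) in *Pdk1*.
Pdk4: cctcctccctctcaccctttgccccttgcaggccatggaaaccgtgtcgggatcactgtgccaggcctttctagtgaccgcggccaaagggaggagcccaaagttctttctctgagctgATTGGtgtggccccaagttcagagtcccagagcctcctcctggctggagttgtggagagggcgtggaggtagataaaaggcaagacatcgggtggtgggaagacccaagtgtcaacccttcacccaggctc
Pdk1: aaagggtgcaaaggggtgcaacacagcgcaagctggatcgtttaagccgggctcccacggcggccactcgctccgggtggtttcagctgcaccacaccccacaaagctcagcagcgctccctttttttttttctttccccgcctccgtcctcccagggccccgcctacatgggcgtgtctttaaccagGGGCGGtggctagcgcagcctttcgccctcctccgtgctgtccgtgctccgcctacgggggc
The CCAAT box of *Pdk4* begins at position -131 from the start, and 33.9% of all 32851 promoter windows of that length hold the letters CCAAT on either strand. The GC box of *Pdk1* begins at -62, and 32.7% of all windows hold GGGCGG. Windows were found for 9 of the 10 genes. *Pdk1* has a second window, farther along the gene, with no GC box. *Pdhb* holds 3 CCAAT boxes, *Pdp2* 2 and *Pdk3* 1. Of 11 windows, 1 of *Pdk2* and that of *Pdha1* could not be matched to the strand of their transcripts, and their CCAAT and GC boxes are not counted. By coordinates these 2 lie directly before the gene start on the minus strand, whereas the counted window of *Pdk2* lies within its gene. Searched letters for FOXO factors (GTAAACA, in 3.17% of all windows), nuclear receptors (AGGTCA, in 14.0%) and cyclic AMP response (TGACGTCA, in 1.55%) were in none of the other 9 windows. The same held for the estrogen-related receptor element (TNAAGGTCA) and the PPAR direct repeat, which both contain the nuclear receptor letters, for the glucocorticoid palindrome, the stress element (TGATGNAA) and the TATA box (TATAAA). These counts describe the letters in these windows only.

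*Pdk4* was higher in LKO than in Ctrl libraries of all 4 tissues, with no overlap between the groups in any of them. In liver it was at 4.37, 2.19 and 2.47 FPKM in Ctrl and at 19.6, 102 and 171 FPKM in LKO. The lowest LKO library stood above every control, and the 3 LKO libraries spread widely among themselves. The means were 3.01 ± 1.19 and 97.7 ± 75.9 FPKM (SD, n = 3), and the log2 fold change was 4.2 ± 0.71 (SE) on the log2(FPKM + 1) scale, with an adjusted p of 0.00548 (limma, Benjamini-Hochberg over 10956 genes). The LKO library with the least *Pdk4*, LKO 1, also kept the most *Crif1*, and without it the log2 fold change was 5.10, while without LKO 3 it was 3.56 (adjusted p 0.0113). With ordinary in place of moderated variances the adjusted p was 0.0523.

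**Figure D1:**
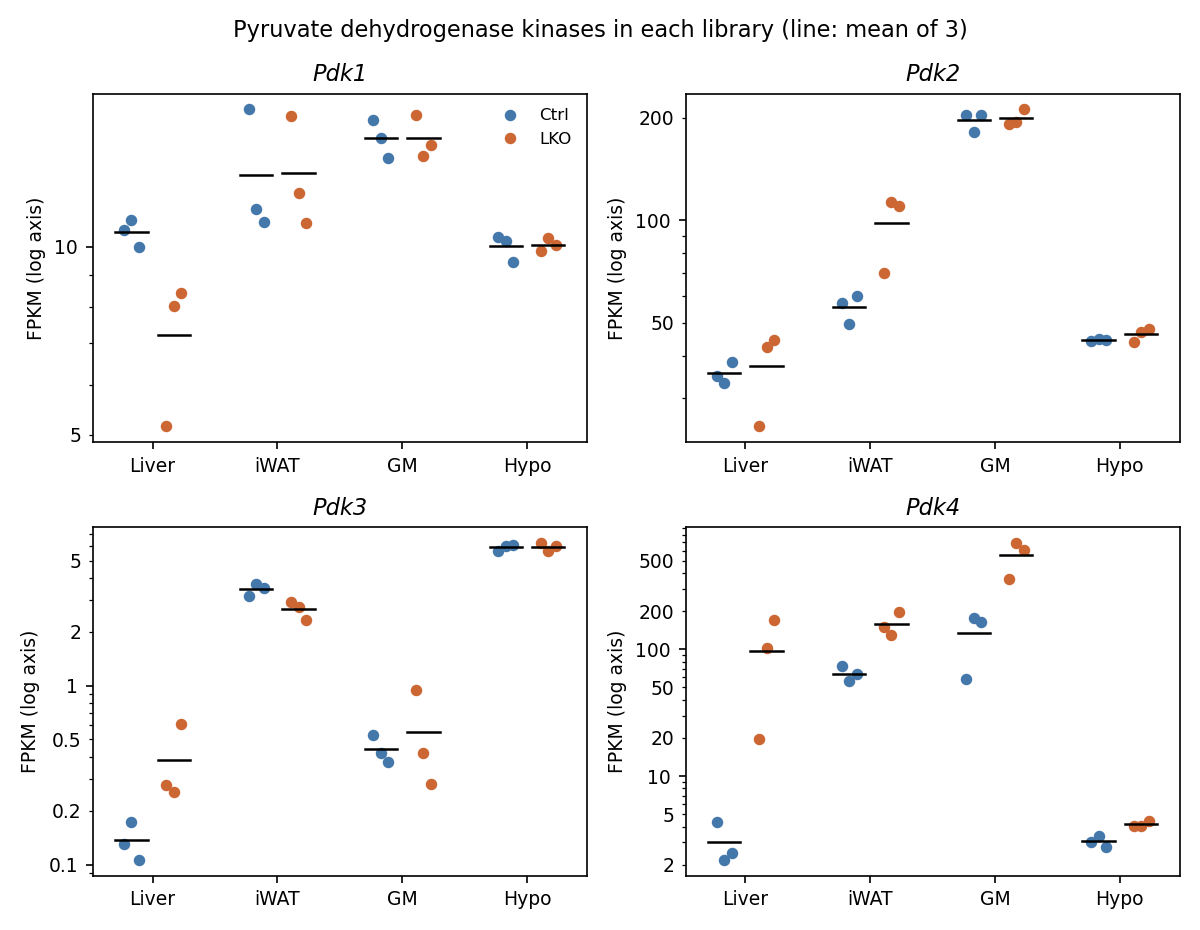
FPKM (log axis) of the 4 kinases in each library of liver, iWAT, GM and hypothalamus, with Ctrl and LKO as points and the mean of 3 as a line. *Pdk4* lies higher in LKO than in Ctrl in every tissue, from 4.37 at most to 19.6 at least in liver, whereas *Pdk1* lies lower in LKO in liver, at 8.44 FPKM at most against 9.997 at least in Ctrl.

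In iWAT *Pdk4* was at 73.3, 55.8 and 63.9 FPKM in Ctrl and at 150, 129 and 197 FPKM in LKO. All 3 LKO libraries were above all 3 controls, with a log2 fold change of 1.28 ± 0.17 (SE) and an unadjusted p of 0.000199 (limma), but the adjusted p was 0.0884. The highest mean of *Pdk4* among the 4 tissues was in GM, at 58.3, 176 and 165 FPKM in Ctrl and at 360, 690 and 610 FPKM in LKO. The controls of GM and iWAT overlapped (limma adjusted p 0.1315). The log2 fold change in GM was 2.15 ± 0.44 (SE) with an unadjusted p of 0.00164 (limma) and an adjusted p of 0.43, and without Ctrl 1, the lowest control, it was 1.64. In hypothalamus the levels were 3.03, 3.39 and 2.74 FPKM in Ctrl and 4.07, 4.01 and 4.42 in LKO. That step was small, with a log2 fold change of 0.35 ± 0.08 (SE), an unadjusted p of 0.00383 and an adjusted p of 0.999 (limma).

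The LKO effect on *Pdk4* differed between the tissues (interaction of genotype and tissue over 24 libraries, limma adjusted p 0.0034), as did 33.5% of the 15849 genes in that test. The effect in liver exceeded that in iWAT by 2.92 ± 0.74 on the log2 scale (SE, adjusted p 0.00526), that in GM by 2.05 ± 0.74 (adjusted p 0.0398) and that in hypothalamus by 3.85 ± 0.74 (adjusted p 0.000938). Of all genes, 34.7%, 32.8% and 32.1% passed these 3 contrasts, in that order. The effects in iWAT and GM differed by -0.87 ± 0.74 (SE, iWAT minus GM, adjusted p 0.812). The 24-library fit takes 1 spread for all tissues, although *Pdk4* varied more in LKO liver than elsewhere.

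Measured as a share of all kinase transcripts in the same library, *Pdk4* went from 8.72%, 4.70% and 4.85% in Ctrl liver to 39.4%, 66.9% and 76.2% in LKO liver. In GM the shares were 20.9%, 47.2% and 43.0% in Ctrl and 63.2%, 76.7% and 72.9% in LKO. The iWAT shares were 48.9%, 46.2% and 46.2% in Ctrl and 62.8%, 50.2% and 61.4% in LKO. In each of these tissues the groups did not overlap, and the differences in mean share were 54.7, 33.9 and 11 percentage points for liver, GM and iWAT. Hypothalamus also showed no overlap, from 4.81% ± 0.45 in Ctrl to 6.27% ± 0.24 in LKO (SD, n = 3). Each of these 4 comparisons had an exact two-sided permutation p of 0.1, the smallest that 3 against 3 libraries allow. *Pdk2* was thus the leading kinase in every Ctrl library of liver and GM, and *Pdk4* led in every LKO library of GM and in LKO 2 and LKO 3 of liver. In liver LKO 1 *Pdk2* still held 49.7%.

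**Figure D2:**
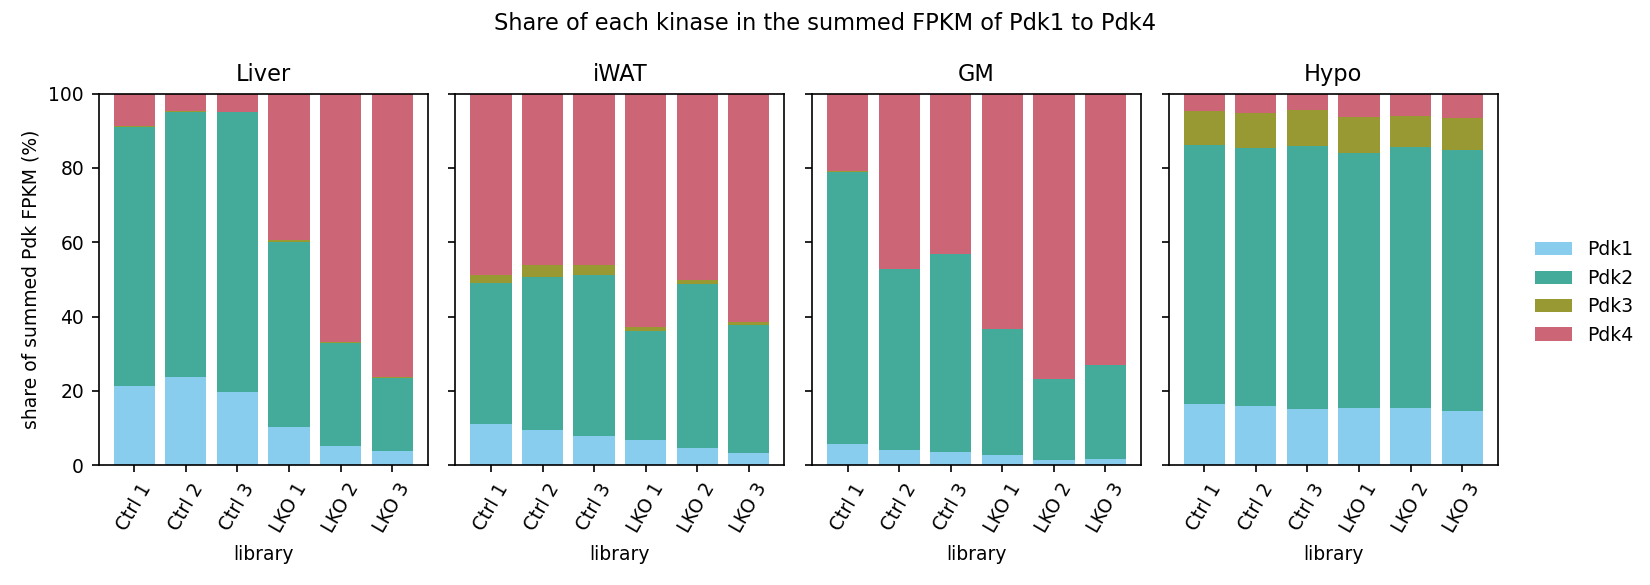
Share (%) of *Pdk1*, *Pdk2*, *Pdk3* and *Pdk4* in their summed FPKM, 1 stacked bar per library, for liver, iWAT, GM and hypothalamus. *Pdk4* fills 39.4% to 76.2% of the bar in LKO liver against 4.70% to 8.72% in Ctrl liver, and 63.2% to 76.7% in LKO GM against 20.9% to 47.2% in Ctrl GM.

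*Pdk1* was the kinase that fell in LKO liver. It was at 10.6, 11 and 9.997 FPKM in Ctrl and at 5.15, 8.03 and 8.44 FPKM in LKO. The groups did not overlap, and the log2 fold change was -0.52 ± 0.18 (SE, limma adjusted p 0.0484). The adjusted p was between 0.0906 and 0.136 with Ctrl 1, Ctrl 2, Ctrl 3 or LKO 2 left out, and 0.0207 without LKO 1, whose absence took the log2 fold change to -0.32. The median log2 fold change of all genes tested in liver was 0.33, and it was 0.02 after median-ratio scaling, which divides each library by the median of its ratios to a reference. On that scale *Pdk1* was at -0.85 (adjusted p 0.00389). The adjusted p was 0.0853 with the deposited TPM, 0.0734 with no filter on low values, 0.117 with ordinary variances and 0.0603 with the replicate number as a block, so the call ended under each of these. Relative to the mean FPKM of the 4 subunits in the same library, which does not depend on scaling, *Pdk1* was at 0.295, 0.327 and 0.309 in Ctrl liver and at 0.142, 0.174 and 0.154 in LKO liver. The subunit mean itself was 34.0 ± 1.9 FPKM in Ctrl liver and 45.7 ± 9.3 in LKO liver (SD, n = 3), higher without overlap. In iWAT the ratio of *Pdk1* to the subunits was lower without overlap too, at 0.102, 0.107 and 0.107 in Ctrl and 0.0961, 0.0927 and 0.0979 in LKO. Outside liver the *Pdk1* levels of Ctrl and LKO overlapped, with log2 fold changes from 0.00 to 0.01.

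*Pdk2* in liver was at 34.9, 33.2 and 38.3 FPKM in Ctrl and at 24.8, 42.4 and 44.3 FPKM in LKO. LKO 1 lay below every control and the others above every control, so the log2 fold change of 0.02 ± 0.22 (SE, limma adjusted p 0.933) joins libraries on both sides, and without LKO 1 it was 0.28 (adjusted p 0.0339). In that refit the median log2 fold change of all liver genes was 0.395, above that of *Pdk2*. At an adjusted p under 0.05, 6144 of 10436 genes rose in it and 892 fell. After median-ratio scaling of the full set *Pdk2* was at -0.33. In iWAT the levels were 56.9, 49.7 and 60.03 FPKM in Ctrl and 70.1, 113 and 110 FPKM in LKO, all higher than in Ctrl. The log2 fold change there was 0.78 ± 0.19 (SE), with an unadjusted p of 0.00556 and an adjusted p of 0.157 (limma), and without LKO 1 it was 1.00 (adjusted p 0.046). In the fit of all 24 libraries its adjusted p was 0.00906. GM, the tissue with the most *Pdk2*, held 182 to 204 FPKM in Ctrl and 192 to 212 FPKM in LKO.

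The interaction of genotype and tissue had an adjusted p of 0.0414 for *Pdk2* (limma), and leaving out 1 library at a time kept it under 0.05 in 6 of 24 refits. *Pdk3* was below the testing limit of 1 FPKM in liver and GM. In liver it was at 0.130, 0.173 and 0.106 FPKM in Ctrl and at 0.280, 0.255 and 0.612 FPKM in LKO. In iWAT *Pdk3* was at 3.15, 3.68 and 3.53 FPKM in Ctrl and at 2.95, 2.75 and 2.34 in LKO, without overlap (log2 fold change -0.28 ± 0.10 SE, limma adjusted p 0.274). Hypothalamus, with the most *Pdk3*, held 5.65 to 6.12 FPKM in Ctrl and 5.65 to 6.28 in LKO.

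*Pdp1* (NCBI Gene 381511, chromosome 4 from 11958183 to 11966450, minus strand) encodes the phosphatase that calcium activates, and *Pdp2* (NCBI Gene 382051, chromosome 8 from 104591468 to 104596849, plus strand) the one that insulin is known to regulate in fat. In controls *Pdp1* made up 93.7% ± 0.84 of the summed phosphatase FPKM in GM and 91.96% ± 0.82 in hypothalamus, but 45.2% ± 4.6 in iWAT and 4.86% ± 0.37 in liver (SD, n = 3 each). In GM *Pdp1* was at 19.7, 14.6 and 16.8 FPKM in Ctrl and at 13.1, 10.2 and 10.6 FPKM in LKO. Every LKO library was below every control, with a log2 fold change of -0.55 ± 0.13 (SE), an unadjusted p of 0.0037 and an adjusted p of 0.497 (limma). This lies just under the 1.5-fold limit, and without Ctrl 2 or LKO 1 it was -0.65. GM *Pdp2* was at 1.10, 1.06 and 1.21 FPKM in Ctrl and at 1.49, 2.67 and 1.58 FPKM in LKO, higher in all 3 (log2 fold change 0.43 ± 0.16 SE, limma adjusted p 0.654). That log2 fold change was 0.26 without LKO 2 and 0.67 with a pseudocount of 0.1. The share of *Pdp1* in GM accordingly went from 94.7%, 93.2% and 93.3% to 89.7%, 79.3% and 87.0% (exact two-sided permutation p 0.1).

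Liver *Pdp1* was under 1 FPKM in all 6 libraries, at 0.254, 0.267 and 0.289 FPKM in Ctrl and 0.530, 0.791 and 0.940 FPKM in LKO. The mean coverage of its transcript in liver was between 1.43 and 4.2 reads per base. The groups did not overlap, and the share of *Pdp1* in the phosphatase sum was 4.86% ± 0.37 in Ctrl and 10.3% ± 3.4 in LKO (SD, n = 3, exact two-sided permutation p 0.1). *Pdp2*, the main phosphatase of liver, was at 5.39, 4.84 and 5.68 FPKM in Ctrl and at 7.73, 5.77 and 6.64 FPKM in LKO. Its log2 fold change was 0.29 ± 0.13 (SE, limma adjusted p 0.111) and -0.02 after median-ratio scaling. The interaction of genotype and tissue had an adjusted p of 0.0016 for *Pdp1* (limma). *Pdp1* entered that fit only through the tissues where it is higher, and the test uses liver values under the limit of 1 FPKM, where the pseudocount outweighs the level, so the difference between the tissues is given as a description. No contrast of tissues without liver passed for it, with an adjusted p of 0.439 between iWAT and GM and 0.753 between GM and hypothalamus.

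**Figure D3:**
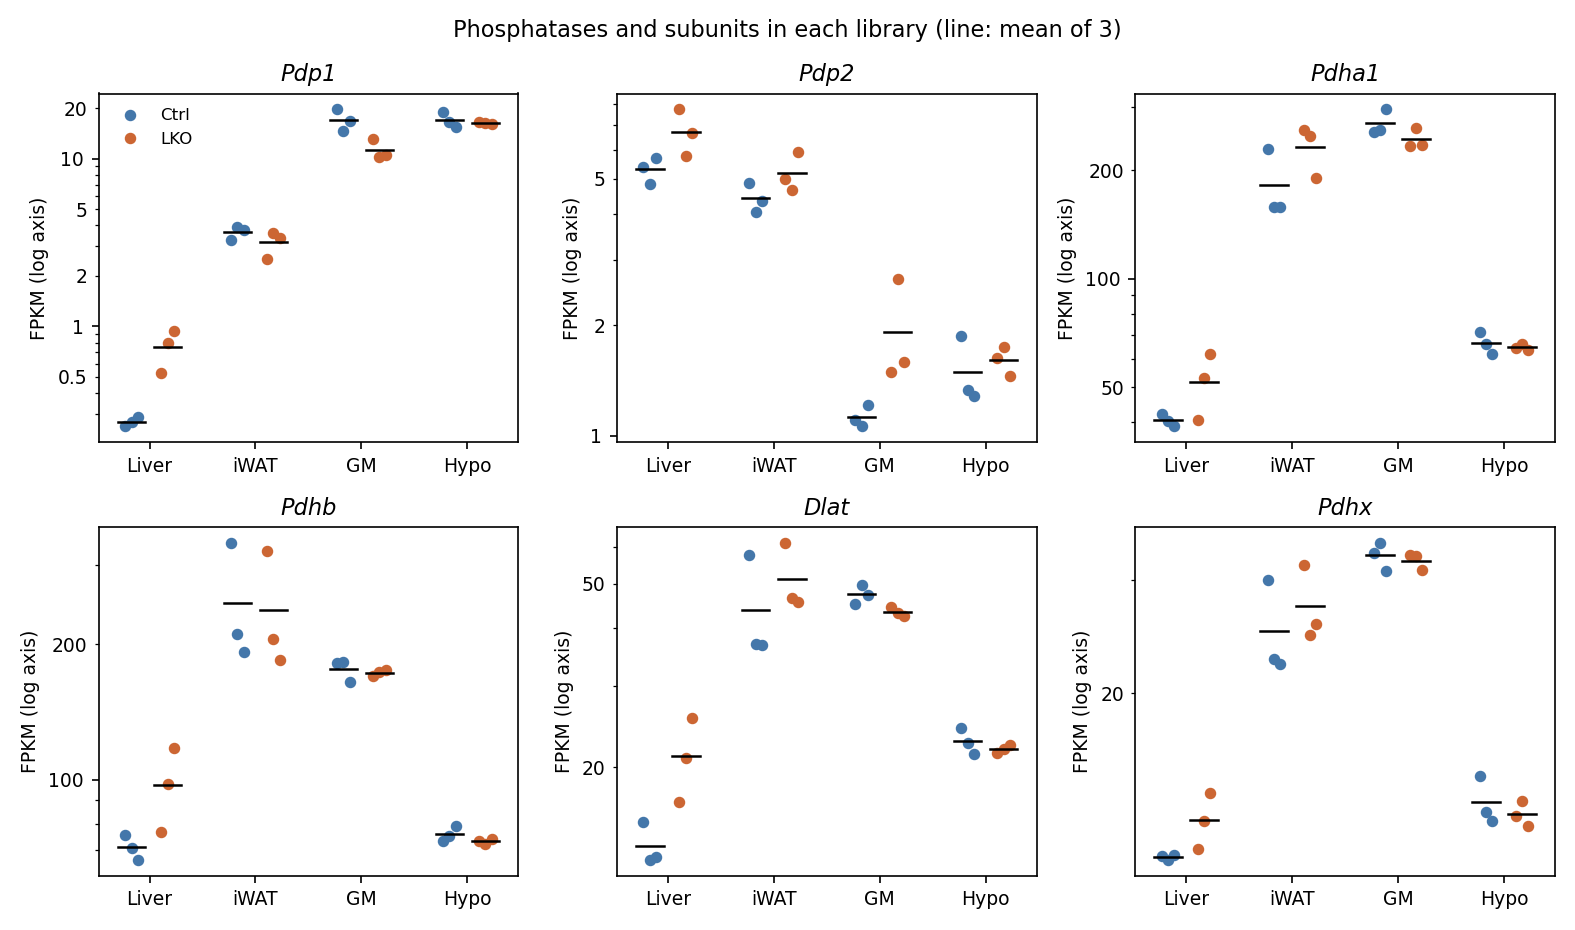
FPKM (log axis) of the 2 phosphatases and 4 subunits in each library, with Ctrl and LKO as points and the mean of 3 as a line. *Pdp1* lies lower in LKO than in Ctrl in GM, at 13.1 FPKM at most against 14.6 at least, and *Dlat* lies higher in LKO liver, at 16.8 FPKM at least against 15.2 at most.

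Of the catalytic subunits, *Dlat* (NCBI Gene 235339, chromosome 9 from 50634633 to 50659780, minus strand), the acetyltransferase that forms the core of the complex and carries lipoyl groups, rose in LKO liver. It was at 15.2, 12.6 and 12.8 FPKM in Ctrl and at 16.8, 21.0 and 25.6 FPKM in LKO. The log2 fold change was 0.59 ± 0.16 (SE, limma adjusted p 0.0271). After median-ratio scaling it was 0.25 with an adjusted p of 0.0982, and after quantile normalization 0.24 with an adjusted p of 0.115. With ordinary variances the adjusted p was 0.0852. Without Ctrl 1, Ctrl 2, Ctrl 3, LKO 2 or LKO 3 the adjusted p was between 0.0524 and 0.0962. Without LKO 1 it was 0.00145, in a refit that called 6144 of 10436 liver genes higher. Relative to *Pdhx* (NCBI Gene 27402, chromosome 2 from 103021057 to 103073513, minus strand), which encodes the protein that tethers dihydrolipoamide dehydrogenase to that core, *Dlat* was at 1.36, 1.15 and 1.15 in Ctrl liver and at 1.47, 1.66 and 1.83 in LKO liver. These ratios did not overlap (exact two-sided permutation p 0.1).

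*Pdha1* (NCBI Gene 18597, chromosome X from 160122219 to 160138430, minus strand) and *Pdhb* (NCBI Gene 68263, chromosome 14 from 8165991 to 8172992, minus strand) encode the alpha and beta subunits of the decarboxylase. The span of *Pdha1* overlaps *Map3k15* on the opposite strand, and since the library kit does not keep strand, reads there cannot be told apart. In liver *Pdhb* was at 75.6, 70.8 and 66.5 FPKM in Ctrl and at 76.4, 98.0 and 118 in LKO. That difference gave a log2 fold change of 0.43 ± 0.16 (SE, limma adjusted p 0.065), and 0.07 after median-ratio scaling. Without LKO 1 it was 0.59 (adjusted p 0.00245), in a refit that called 6144 of 10436 liver genes higher. Without LKO 3 it was 0.29 (adjusted p 0.153). Liver *Pdha1* was at 42.2, 40.3 and 39.0 FPKM in Ctrl and at 40.5, 52.9 and 61.8 in LKO, where LKO 1 lay among the controls (log2 fold change 0.33 ± 0.16 SE, limma adjusted p 0.122). Liver *Pdhx* was at 11.1, 11 and 11.2 FPKM in Ctrl and at 11.4, 12.6 and 14.0 in LKO (log2 fold change 0.17 ± 0.11 SE, limma adjusted p 0.22). After median-ratio scaling these were at -0.03 and -0.17. Without LKO 1 *Pdha1* was at 0.49 (adjusted p 0.00391). Without LKO 3 *Pdha1* was at 0.19 (adjusted p 0.3085) and *Pdhx* at 0.10. The ratio of *Pdha1* to *Pdhb* within each liver library was 0.571 ± 0.014 in Ctrl and 0.531 ± 0.008 in LKO (SD, n = 3), lower in 3 of 3 libraries (exact two-sided permutation p 0.1).

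Outside liver no subunit passed either criterion. In GM *Dlat* was at 45.1, 49.7 and 47.3 FPKM in Ctrl and at 44.4, 43.2 and 42.5 in LKO, lower without overlap (log2 fold change -0.12 ± 0.06 SE, limma adjusted p 0.773). The log2 fold changes of the other subunits in GM lay between -0.15 and -0.03, and those of all 4 in hypothalamus between -0.06 and -0.03. In iWAT they lay between -0.05 and 0.36. There the subunits moved with the library within each genotype. *Pdhb* was at 336 FPKM in Ctrl 1 and 323 in LKO 1, and between 185 and 211 in the other 4 iWAT libraries, and *Pdha1*, *Dlat*, *Pdhx* and *Pdk1* were likewise highest in library 1 of each genotype. Those libraries were also the deepest of iWAT, at 7.95 and 7.58 gigabases against 4.63 to 5.22, and the part of depth in the subunit levels was not tested. The summed brown-type adipocyte markers of iWAT were highest in Ctrl 1 among the controls but in LKO 3 among the LKO libraries. The LKO effect on *Dlat* differed between tissues (interaction, limma adjusted p 0.044, under 0.05 in 9 of 24 refits with 1 library left out), by 0.71 ± 0.22 between liver and GM (SE, adjusted p 0.0167).

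Counted over all members, liver had 8 tested, GM had 9, and iWAT and hypothalamus had all 10. In liver 3 of 8 passed an adjusted p under 0.05, with *Pdk4* and *Dlat* higher and *Pdk1* lower, against 43.8% of all genes tested there. At least 1.5-fold and an unadjusted p under 0.05 held for *Pdk4* and *Dlat*, 2 of 8, against 28.9% of all genes, and 6 of 8 did not overlap between the groups against 61.1%. The members as a list therefore passed at about the share of liver genes in general, and their median log2 fold change of 0.31 lay beside 0.33 for all genes, or -0.03 beside 0.02 after median-ratio scaling.

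In iWAT 0 of 10 members and 0% of 12288 genes passed the adjusted criterion (limma), with 1842 genes at an unadjusted p under 0.05, while the fit of all 24 libraries called 397 higher and 248 lower. *Pdk4* and *Pdk2*, 2 of 10, passed the unadjusted criterion against 3.25% of all genes, and 3 of 10 did not overlap against 20.8%. In GM 0 of 9 members and 0% of 10877 genes passed the adjusted criterion, with 743 genes at an unadjusted p under 0.05 and 18 higher and 21 lower in the fit of all 24 libraries. *Pdk4*, 1 of 9, passed the unadjusted criterion against 0.901% of all genes, and without Ctrl 2 or LKO 1 *Pdp1* passed it as well. In GM 4 of 9 did not overlap against 11.6%. Hypothalamus gave 0 of 10 by the adjusted criterion against 0.0217% and 0 of 10 by the unadjusted one against 0.333%, with 515 genes at an unadjusted p under 0.05 (limma), and 1 of 10, *Pdk4*, did not overlap against 9.7%.

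**Figure D4:**
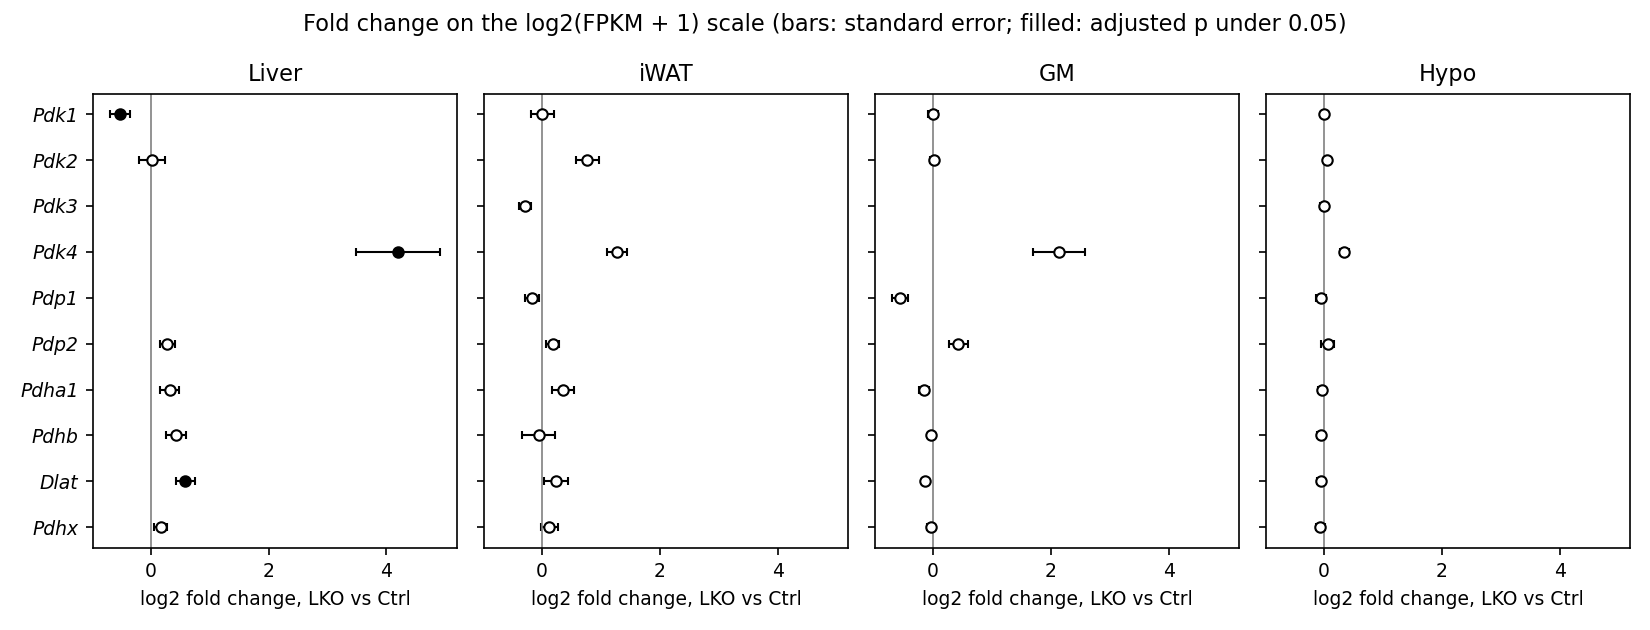
Log2 fold change of LKO against Ctrl on the log2(FPKM + 1) scale for each member tested in each tissue, with bars for the standard error and filled points for an adjusted p under 0.05 (limma). The filled points are *Pdk4* at 4.2, *Dlat* at 0.59 and *Pdk1* at -0.52 in liver, and *Pdk4* lies farthest to the right in every tissue.

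Set against the complex itself, the summed kinase FPKM divided by the mean of the 4 subunits was 2.17, 2.85 and 2.85 in Ctrl GM and 4.73, 7.05 and 6.91 in LKO GM. In iWAT it was 0.920, 1.12 and 1.35 in Ctrl and 1.42, 1.96 and 2.87 in LKO. The groups did not overlap in either tissue (exact two-sided permutation p 0.1 each). In liver the ratio was 1.39, 1.38 and 1.57 in Ctrl and 1.37, 3.32 and 4.10 in LKO, so that LKO 1 was as low as the controls. Hypothalamus differed by little, from 1.42 ± 0.04 in Ctrl to 1.54 ± 0.05 in LKO (SD, n = 3), again without overlap. The sum of the kinases over the sum of the phosphatases was 19.5 ± 5.5 in Ctrl and 59.2 ± 17.4 in LKO for GM, and 16.8 ± 1.7 and 32.4 ± 1.7 for iWAT (SD, n = 3, no overlap, exact two-sided permutation p 0.1 each). In liver this ratio was 8.88, 9.12 and 8.51 in Ctrl and 6.03, 23.3 and 29.6 in LKO. The lowest LKO liver library was below the controls and the others above them.

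**Figure D5:**
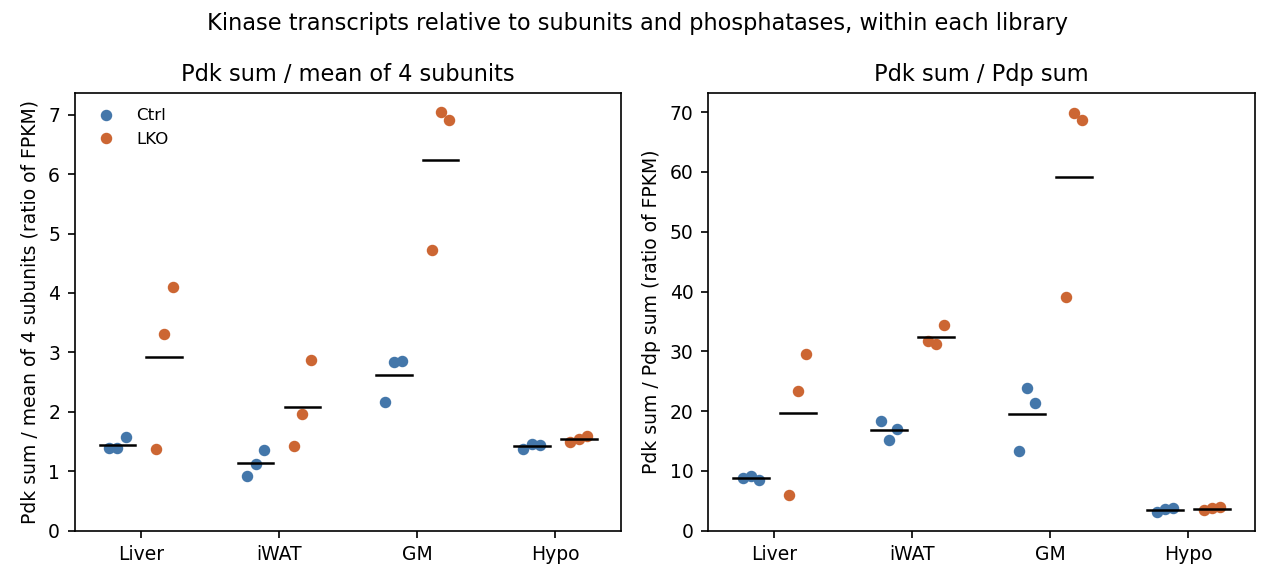
Ratio of summed kinase FPKM to the mean FPKM of the 4 subunits and to the summed phosphatase FPKM, within each library, with Ctrl and LKO as points and the mean of 3 as a line. In GM and iWAT all LKO points lie above all Ctrl points in both panels, whereas LKO 1 of liver lies at 1.37 and 6.03, at or below its controls.

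The order of the control tissues differed by member. *Pdk2*, *Pdk4*, *Pdha1*, *Dlat* and *Pdhx* were highest in GM, followed by iWAT, hypothalamus and liver. For *Pdk4* the means were 133, 64.3, 3.05 and 3.01 FPKM in that order, and GM and iWAT (limma adjusted p 0.131) as well as hypothalamus and liver (adjusted p 0.934) did not differ beyond their spread. Nor did *Dlat* in GM and iWAT, at 47.4 and 43.8 FPKM (adjusted p 0.423). *Pdk2* in GM, at 197 FPKM, was 3.54 times that in iWAT, and iWAT, hypothalamus and liver followed at 55.6, 44.4 and 35.5 FPKM with neighbours at adjusted p 0.104 and 0.0916. Between iWAT and liver *Pdk2* differed (limma adjusted p 0.00242). *Pdhb* was highest in iWAT, at 246 FPKM against 176 in GM (adjusted p 0.0413). *Pdk3* was highest in hypothalamus, at 5.93 FPKM, then iWAT at 3.45, GM at 0.443 and liver at 0.136. Hypothalamus and iWAT, and iWAT and GM, differed beyond their spread, while GM and liver were both under 1 FPKM and are not ranked. *Pdp1* was at 17 and 16.9 FPKM in GM and hypothalamus (adjusted p 0.99), then 3.65 in iWAT and 0.270 in liver. *Pdp2* ran the other way, at 5.30 FPKM in liver, 4.44 in iWAT, 1.49 in hypothalamus and 1.13 in GM. Of these neighbours only iWAT and hypothalamus differed (limma adjusted p 1.28e-07), with 0.1475 for liver and iWAT and 0.124 for hypothalamus and GM. *Pdk1* ranged only from 10.01 FPKM in hypothalamus to 14.9 in GM, and no neighbours in its order differed beyond their spread. GM did differ from hypothalamus (limma adjusted p 0.00358) and from liver (adjusted p 0.0118).

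Among the 10 members, 8 differed between Ctrl liver and iWAT at an adjusted p under 0.05 (limma) against 77.9% of all genes, 10 between liver and GM (with *Pdk3*, under 1 FPKM in both, among them) against 68.7%, and 6 between liver and hypothalamus against 85.9%. Between iWAT and GM 7 differed against 74.6%, between iWAT and hypothalamus 8 against 78.8%, and between GM and hypothalamus 8 against 83.5%. These levels were compared across tissues whose RNA differs in composition, and after quantile normalization only *Pdk3*, *Pdp1* and *Pdha1* kept their whole order.

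Few of the other parts of the complex passed a test. *Dld* (NCBI Gene 13382), the dihydrolipoamide dehydrogenase that the complex shares with its sister enzymes, was at 55.3, 49.3 and 48.8 FPKM in Ctrl liver and at 61.3, 63.2 and 67.2 in LKO liver. It passed with a log2 fold change of 0.32 ± 0.10 (SE, limma adjusted p 0.0394), which was -0.04 after median-ratio scaling. *Pdpr*, the regulatory subunit of the phosphatase, overlapped between the groups in every tissue, and its span overlaps 9430091E24Rik on the opposite strand. Of the 9 genes of the remaining complex and of lipoyl attachment, 2 of 9 tested rose in liver and 0 fell, against 38.3% of all liver genes that rose, the other being *Bola3* (0.43 ± 0.12 SE, adjusted p 0.0275, and 0.07 after median-ratio scaling). None passed in iWAT, GM or hypothalamus by either criterion.

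Of 10 listed genes that make pyruvate or bring it to the complex, 9 were tested in liver, and 6 rose and 0 fell by the adjusted criterion, against 38.3% of all liver genes that rose and 5.49% that fell. These shares move with the scaling. After median-ratio scaling 2013 of 10956 liver genes rose and 1482 fell, and after quantile normalization 1570 rose and 1732 fell. The counts of the lists are given without these scalings only. The median log2 fold change was 0.63 for the list and 0.33 for all genes (0.26 and 0.02 after median-ratio scaling), and the list was not tested against other genes. *Slc16a1*, a plasma membrane carrier of lactate and pyruvate, was at 11.9 ± 1.1 FPKM in Ctrl and 34.1 ± 4.9 in LKO (SD, n = 3), a rise of 1.44 on the log2 scale (limma adjusted p 0.000984). *Slc16a7*, a carrier of the same family, rose by 1.03 (adjusted p 0.00548) and *Pkm*, the pyruvate kinase of most tissues other than liver, by 0.91 (adjusted p 0.00391, and 0.57 after median-ratio scaling). Of 8 listed genes for other fates of pyruvate, 7 were tested in liver and 4 rose, beside the same 38.3%. Among them were *Pck2*, the mitochondrial phosphoenolpyruvate carboxykinase, at 1.02 ± 0.11 FPKM in Ctrl and 5.80 ± 1.99 in LKO (1.71 on the log2 scale, adjusted p 0.00254), *Me1*, the cytosolic malic enzyme (0.84, adjusted p 0.0292, and 0.48 after median-ratio scaling), and *Gpt2*, the mitochondrial alanine aminotransferase (0.71, adjusted p 0.0324, and 0.35 after median-ratio scaling). In iWAT *Pck1*, the cytosolic carboxykinase, was at 1209 ± 369 FPKM in Ctrl and 2744 ± 587 in LKO (log2 fold change 1.21, adjusted p 0.152). Of 8 sister dehydrogenase genes for other keto acids tested in liver, 1 rose, *Bckdhb* (0.47, adjusted p 0.0157, and 0.12 after median-ratio scaling), and 1 fell, *Dhtkd1* (-0.57, adjusted p 0.0228, and -0.89 after that scaling).

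Of 16 listed factors known to regulate kinase transcription, 15 were tested in liver. By the adjusted criterion 2 rose and 1 fell, against 38.3% and 5.49% of all liver genes, shares that move with the scaling as given above. There *Pparg*, a lipid-sensing nuclear receptor, rose by 1.56 (from 3.26 ± 1.37 to 11.4 ± 3.5 FPKM, limma adjusted p 0.00814), the coactivator *Ppargc1a* rose by 0.71 (adjusted p 0.0034, and 0.46 after median-ratio scaling) and *Klf15*, a factor induced in fasting, fell by 0.68 on the log2 scale (adjusted p 0.00822, and -1.04 after that scaling). In GM 1 of 16 passed the unadjusted criterion, upward, against 0.579% of all genes, *Foxo1*, an insulin-inhibited activator of *Pdk4*, at 3.24 ± 0.06 FPKM in Ctrl and 6.61 ± 0.94 in LKO (log2 fold change 0.84, adjusted p 0.285). In iWAT 1 of 15 was higher and 1 lower by that criterion, against 3.25% of all genes in either direction. *Ppara* was at 4.41 ± 1.21 and 7.12 ± 0.98 FPKM (0.60, adjusted p 0.209) and *Pparg* at 146 ± 16 and 94.2 ± 13.7 FPKM (-0.63, adjusted p 0.13). In hypothalamus 1 of 13 passed it, against 0.333% in either direction, *Nr4a1* at 14.2 ± 1.2 and 8.81 ± 0.53 FPKM (-0.63, adjusted p 0.174).

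Known targets of the same factors were described as lists beside *Pdk4*. Of 17 targets of the PPAR receptors, 15 were tested in liver and 11 rose by the adjusted criterion, against 38.3% of all liver genes, with a median of 0.58 against 0.33 (0.22 against 0.02 after median-ratio scaling). The largest changes were those of *Acot2*, a mitochondrial acyl-CoA thioesterase (3.45, adjusted p 0.00535), *Cyp4a14*, a fatty acid hydroxylase (2.64, adjusted p 0.00243), and *Plin2*, a lipid droplet protein (1.66, adjusted p 0.00511). In GM 5 of 14 tested passed the unadjusted criterion upward against 0.579% of all genes, among them *Angptl4*, an inhibitor of lipoprotein lipase (1.73, adjusted p 0.379), and *Ucp3*, a mitochondrial carrier of muscle (1.5, adjusted p 0.455). In hypothalamus *Angptl4* alone of 14 did so, against 0.166% of all genes (0.79, adjusted p 0.347). None of these lists was tested against other genes. The FOXO, glucocorticoid and HIF lists lay near the liver shares of 38.3% up and 5.49% down in their upward counts, with 2 of 10 down in each. After median-ratio scaling, where the lists were not counted, 2013 of 10956 liver genes were up and 1482 down. The targets of FOXO factors gave 4 up and 2 down of 10 in liver, with *Igfbp1* at 2.18 (adjusted p 0.00735) and *Klf15*, which is also listed among the regulators, at -0.68. Glucocorticoid targets gave 3 up and 2 down of 10 in liver, where *Zbtb16* (2.16, adjusted p 0.00515) and *Tsc22d3* (-1.82, adjusted p 0.000216) went opposite ways, and in hypothalamus *Zbtb16* was at 1.72 ± 0.22 FPKM in Ctrl and 6.59 ± 1.64 in LKO (1.46, adjusted p 0.13). HIF targets gave 3 up and 2 down of 10 in liver, with *P4ha2* (1.21, adjusted p 0.0426) and *Ddit4* (1.12, adjusted p 0.0326) higher. By the unadjusted criterion, 2 of 10 FOXO targets (*Sesn1* and *Trim63*) and 1 of 13 HIF targets (*Pfkfb3*) were higher in GM, against 0.579% of all genes, and 2 of 9 glucocorticoid targets (*Zbtb16* and *Fkbp5*) in hypothalamus, against 0.166%. *Trim63* and *Fkbp5* were named after their values were seen. In iWAT 1 of 15 PPAR targets was higher, and 1 of 9 glucocorticoid targets was higher and 1 lower, against 3.25% of all genes in either direction.

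Over the 4 tissues, the genes whose log2 fold changes lay nearest to those of *Pdk4*, by root mean square difference over 9022 genes tested in all of them, were *Mt2* at 0.93, *Mt1* at 0.97, *Egr1* at 1.05, *Acot2* at 1.06 and *Cd36* at 1.15. Even the nearest, the metallothionein *Mt2*, had a log2 fold change of 5.54 in liver (4.2 for *Pdk4*), of 0.34 in iWAT (1.28), of 1.28 in GM (2.15) and of 0.46 in the hypothalamus (0.35).

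Markers of other cell types moved with genotype in liver and iWAT. The summed FPKM of 5 macrophage markers was between 94.8 and 99.6 in Ctrl liver and between 214 and 326 in LKO liver, and that of 4 epithelial markers, nearly all *Krt18*, between 83.4 and 132 in Ctrl and between 286 and 325 in LKO. Summed adipocyte markers in liver were between 12.9 and 14.4 in Ctrl and between 33.4 and 35.6 in LKO, nearly all *Fabp4* and *Cidec*, where *Adipoq* was at most 0.278 FPKM. The hepatocyte markers of liver summed to 55047 to 58064 in Ctrl and 41161 to 67153 in LKO, with overlap. Of these, *Apoa1* and *Serpina1a* were lower in every LKO library than in every control, and *Alb*, *Ttr* and *Apoh* overlapped. In iWAT 5 hepatocyte markers, mostly *Alb*, summed to between 14.4 and 25.9 FPKM in Ctrl and between 36.7 and 54.0 in LKO, and the adipocyte sum, mostly *Fabp4*, ranged from 20903 to 24569 in Ctrl and from 25729 to 27052 in LKO, whereas *Adipoq* and *Plin1* overlapped and *Lep* was lower in every LKO library than in every control. Brown-type adipocyte markers in iWAT were at 168 to 512 in Ctrl and 460 to 770 in LKO, and skeletal muscle markers at 56.2 to 527 and 34.7 to 838, both with overlap. In GM none of the 10 marker lists was apart between the groups. The brown-type list in liver was nearly all *Elovl3* in Ctrl, at 441, 305 and 451 FPKM against 33.4, 36.3 and 12.8 in LKO, while *Ucp1* was at 0 and *Ppara* overlapped, so that its lower sum in LKO speaks of 1 gene. The neuron list in liver, nearly wholly *Syt1*, was lower in LKO (1.37 to 1.77 against 2.69 to 3.40). In hypothalamus the muscle list (15.0 to 16.3 against 8.83 to 13.5) and the epithelial list (3.29 to 4.69 against 2.51 to 3.04) were higher. The part of these cell types in the levels of the kinases was not tested.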

How the data were processed

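RNA from 4 tissues of Ctrl and LKO mice was sequenced by the study as 100 nt paired-end reads with a kit that does not keep strand. The authors deposited FPKM per gene in 1 joined table of 24532 genes, and per library a table of coverage, FPKM and TPM in the layout of StringTie. The submitters' processing notes name Trimmomatic 0.32, StringTie 1.3.3b, the mm10 genome and 3 aligners (HISAT2 2.0.5, Bowtie2 2.2.6 and STAR 2.5.2b), and which aligner made these values is not given in the sources used here. Deposited FPKM were scaled by the authors to the fragments of each library and to transcript length, the deposited TPM to the same sum per library, and the deposited coverage signal was not scaled. No scaling between libraries is stated. Counts were not used here, so count tests were not applied. Coverage divided by FPKM gave the depth, and no counting error is given for a gene.

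The model for a single tissue (lmFit and eBayes with trend of limma 3.58.1, R 4.3.3) took log2(FPKM + 1) of 3 LKO and 3 Ctrl libraries for genes at 1 FPKM or more in at least 3 libraries. Benjamini-Hochberg adjustment ran over all genes tested. The adjusted criterion was an adjusted p under 0.05, and the unadjusted criterion a fold change of at least 1.5 and an unadjusted p under 0.05. Differences of effects between tissues, and control tissues, were tested in 1 fit of all 24 libraries, which takes them as independent. Ratios within a library were tested by exact two-sided permutation. A change on the log2(FPKM + 1) scale understates that of low genes. The fit was tested on simulated data.

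The members and all lists were chosen with earlier results of these data known, *Pdk4* among them. The genes named from lists were, per tissue, up to 3 with the largest change among those with an unadjusted p under 0.05 and no overlap of groups. *Gadd45gip1*, *Dld* and *Pdpr*, and the 5 genes nearest to *Pdk4*, were named as well. Promoter sequences came from RefSeq (GRCm38.p6). Alternatives were another pseudocount, no filter, TPM, median-ratio scaling, quantile normalization, ordinary variances, all libraries in 1 fit, the replicate number as a block, and each library left out.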

Additional observations from a re-analysis of the deposited data

Results flagged for a closer look

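The LKO effect differed between the 4 tissues, by the interaction of genotype and tissue over 24 libraries, for *Pdk4* (limma adjusted p 0.0034), *Pdp1* (adjusted p 0.0016), *Pdk2* (adjusted p 0.0414) and *Dlat* (adjusted p 0.044). These are 4 of 10 members, against 33.5% of all 15849 genes. For *Pdk4* the log2 fold changes were 4.2 (liver), 1.28 (iWAT), 2.15 (GM) and 0.35 (hypothalamus), higher in 12 of 12 LKO libraries than in any control of the same tissue. For *Pdp1* the LKO libraries were higher than every control in liver, lower than every control in GM and mixed with them in iWAT and hypothalamus. All 6 liver values of *Pdp1* were under 1 FPKM, the limit for testing within a tissue, so its interaction rests on values that the limit would remove. For *Pdk2* only the iWAT libraries were apart, and for *Dlat* those of liver were higher and those of GM lower. The test holds with each library left out for *Pdk4* (adjusted p at most 0.0137), whereas it reached 0.14 for *Pdk2* without LKO 2 of iWAT and 0.133 for *Dlat* without LKO 3 of liver. After median-ratio scaling the count was also 4, but *Dlat* was lost (adjusted p 0.399) and *Pdk1* passed (0.00564, against 0.132 without that scaling).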

How the results depend on the processing

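In liver 3 members passed the adjusted criterion. The count was 5 with the deposited TPM, where *Pdk1* was lost (adjusted p 0.0853) and *Pdp2*, *Pdha1* and *Pdhb* passed, 0 with ordinary variances and between 1 and 6 with 1 library left out. Of all liver genes, 6018 rose and 468 fell of 10928 with TPM, and 1979 rose and 340 fell of 10956 with ordinary variances. Without LKO 1, where 6 members passed, 6144 genes rose and 892 fell of 10436. Without LKO 2, where 1 member passed, 1131 rose and 270 fell of 10404. The 2 that passed the unadjusted criterion there were between 1 and 3 with 1 library left out. In iWAT the adjusted count was 1 in the fit of all 24 libraries and between 0 and 1 with 1 library left out. In GM the unadjusted count was 3 with a pseudocount of 0.1, where 110 of 10877 genes were higher and 68 lower, and between 1 and 2 with 1 library left out. The interaction held for between 2 and 5 members with 1 library left out. Quantile normalization kept the order of the control tissues for 3 of 10 members. The sign turned in liver after median-ratio scaling and quantile normalization for *Pdk2* (-0.33 and -0.26), *Pdp2* (-0.025 and -0.11) and *Pdhx* (-0.17 and -0.20), and after median-ratio scaling for *Pdha1* (-0.032). In GM it turned for *Pdhb* (0.0022 after median-ratio scaling) and *Pdhx* (0.0026 and 0.0034). With 1 library left out, log2 fold changes ranged across 0 for *Pdk2* in liver (-0.12 to 0.28), *Pdk1* (-0.14 to 0.19) and *Pdhb* (-0.29 to 0.19) in iWAT, *Pdk1* (-0.058 to 0.047), *Pdk2* (-0.035 to 0.05) and *Pdhx* (-0.064 to 0.0062) in GM, and *Pdk1* (-0.027 to 0.033), *Pdk3* (-0.018 to 0.05), *Pdp1* (-0.10 to 0.032), *Pdha1* (-0.079 to 0.017) and *Pdhx* (-0.10 to 0.010) in hypothalamus. The cause of these changes was not tested. The sign of *Pdk4* was the same in every tissue under all settings run.

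It is not given in the sources used here if the replicate numbers of the labels pair the libraries. Deviations from the group means of same-numbered libraries correlated at 0.154, 0.028 and 0.036 in liver and at 0.302, -0.124 and 0.205 in iWAT. In GM they did so at 0.354, 0.05 and 0.163, and in hypothalamus at -0.135, 0.14 and 0.086. With 3 libraries per group these correlations cannot decide it. With the number as a replicate block, *Pdk1* in liver had an adjusted p of 0.0603, *Dlat* 0.048 and *Pdk4* 0.00691. The share of *Pdk4* without the least expressed kinase could not be given in hypothalamus, where that kinase is *Pdk4*. *Pdk3* and *Pdp1* were under 1 FPKM in liver, whose libraries held 4.70 to 8.09 gigabases, as deep as those of the other tissues (4.45 to 7.95).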
